A study of Rattus norvegicus with 6 samples.

Results

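Peroxiredoxins are enzymes that break down hydrogen peroxide with a cysteine in place of a metal or haem. The genes described are the 6 rat peroxiredoxins (Prdx1, Prdx2, Prdx3, Prdx4, Prdx5 and Prdx6), sulfiredoxin (Srxn1), thioredoxin (Txn1), thioredoxin reductase (Txnrd1) and the quinone reductase Nqo1. They were taken by symbol and not by a threshold on values, from a list drawn up with earlier results of these data known, and all 10 were found among the 17172 genes listed. In bone marrow cells selected for c-kit from rats given phenylhydrazine (PHZ), the transcripts of Prdx2, Prdx3, Prdx4 and Srxn1 rose by 1.59-fold to 2.69-fold against rats given phosphate-buffered saline (PBS). None of the 10 was called lower. Prdx1, Prdx5, Prdx6, Txn1, Txnrd1 and Nqo1 did not pass the test. Each of the 4 rises failed to pass in some of 18 alternative fits. Prdx3 passed in 13 of them, Srxn1 in 12, Prdx2 in 11 and Prdx4 in only 6.

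PHZ is a compound that oxidises haemoglobin and destroys red cells. The 3 rats of the PHZ group received 100 mg/kg into the peritoneal cavity, and the 3 rats of the PBS group received the same volume of PBS by that route. All 6 were ACI rats, an inbred strain, aged 6 to 8 weeks, with 2 labelled female and 1 labelled male in each group, and no mutant allele is named for either. Bone marrow of the hind legs was taken at 36 h, and cells carrying c-kit (a growth factor receptor found on stem and progenitor cells, mast cells and early erythroid cells) were bound by a biotinylated antibody and collected with particles for poly(A) RNA sequencing. The selected cells still held several lineages, as the marker genes given further on show.

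In a peroxiredoxin the reactive cysteine is oxidised by peroxide and must then be reduced again. In the typical 2-Cys enzymes, Prdx1 to Prdx4, a disulfide forms between the subunits, and for Prdx1, Prdx2 and Prdx3 thioredoxin reduces it, thioredoxin reductase then restoring thioredoxin with electrons from NADPH. Excess peroxide drives the cysteine on to a sulfinic acid, and sulfiredoxin is the enzyme that repairs it at the cost of ATP. In red cells Prdx2 is among the most abundant proteins, and mice that lack it develop haemolytic anaemia.

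The libraries held 13196249 to 19492793 expected counts each (estimated read counts per gene). Transcripts of the Y-linked genes Ddx3y and Eif2s3y, found in males, went against the sex label in 3 libraries, PHZ replicate 3, PBS replicate 1 and PBS replicate 2. They were present in PHZ replicates 2 and 3 and PBS replicate 1 and at 0 in the others. By these transcripts, unlike by the labels, sex was not balanced between the groups. Why transcripts and labels differ was not tested, so which rat each library came from rests on its label alone. The comparison did not use sex labels. Log2 fold changes of the 10 genes without those 3 libraries are given with those for each library left out. Of 13547 genes tested, 13.2% were called at an adjusted p under 0.05 (edgeR's quasi-likelihood test with Benjamini-Hochberg adjustment). Those called higher in PHZ made up 8.99% and those called lower 4.17%. The higher ones were 68.3% of the calls, and 58.7% with upper-quartile scaling. The labels name no pairs of PHZ and PBS rats, though replicate 2 was the one labelled male in each group. In bulk RNA, fewer cells of a type and less RNA per cell cannot be told apart, which holds for every value given here.

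The promoters of the 4 genes that rose are printed to show what their sequences do and do not share, and that of Prdx1 because it carried the same motif as Srxn1. Each is RefSeq sequence of assembly GRCr8, 300 bases long, from 250 before to 50 after the annotated start, written 5′ to 3′ on the strand of the gene. The Prdx2 promoter lies at chr19:40090933-40091232 (minus strand), that of Prdx3 at chr1:270000062-270000361 (minus), that of Prdx4 at chrX:43878483-43878782 (plus), that of Srxn1 at chr3:161064562-161064861 (plus) and that of Prdx1 at chr5:135383656-135383955 (plus). Capitals mark matches to TGACNNNGC, the core of the antioxidant response element bound by NRF2 with a small MAF protein, or to TGANTCA, the core shared by AP-1 and NF-E2 sites, on either strand.
Prdx2: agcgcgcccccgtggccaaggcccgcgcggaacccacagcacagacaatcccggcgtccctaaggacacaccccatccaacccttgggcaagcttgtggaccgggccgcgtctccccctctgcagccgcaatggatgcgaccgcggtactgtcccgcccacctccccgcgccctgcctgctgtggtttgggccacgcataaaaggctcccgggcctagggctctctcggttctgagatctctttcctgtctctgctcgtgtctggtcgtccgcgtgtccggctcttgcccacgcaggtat
Prdx3: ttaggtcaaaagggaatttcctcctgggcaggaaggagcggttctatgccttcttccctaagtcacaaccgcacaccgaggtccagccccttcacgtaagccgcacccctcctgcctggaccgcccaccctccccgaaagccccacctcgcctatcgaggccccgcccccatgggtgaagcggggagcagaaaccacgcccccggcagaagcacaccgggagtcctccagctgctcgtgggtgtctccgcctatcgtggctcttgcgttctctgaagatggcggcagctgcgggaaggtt
Prdx4: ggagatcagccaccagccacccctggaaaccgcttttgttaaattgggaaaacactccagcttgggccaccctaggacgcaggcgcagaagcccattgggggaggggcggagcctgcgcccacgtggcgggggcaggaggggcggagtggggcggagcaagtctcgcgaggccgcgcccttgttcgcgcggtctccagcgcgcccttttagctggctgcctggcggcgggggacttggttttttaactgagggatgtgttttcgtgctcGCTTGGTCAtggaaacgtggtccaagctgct
Srxn1: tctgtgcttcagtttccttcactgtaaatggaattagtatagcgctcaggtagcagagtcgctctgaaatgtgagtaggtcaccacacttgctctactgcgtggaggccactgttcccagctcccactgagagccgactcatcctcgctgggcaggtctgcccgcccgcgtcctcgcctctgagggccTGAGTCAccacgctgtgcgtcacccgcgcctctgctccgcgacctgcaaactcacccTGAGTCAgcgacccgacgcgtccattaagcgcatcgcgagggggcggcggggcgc
Prdx1: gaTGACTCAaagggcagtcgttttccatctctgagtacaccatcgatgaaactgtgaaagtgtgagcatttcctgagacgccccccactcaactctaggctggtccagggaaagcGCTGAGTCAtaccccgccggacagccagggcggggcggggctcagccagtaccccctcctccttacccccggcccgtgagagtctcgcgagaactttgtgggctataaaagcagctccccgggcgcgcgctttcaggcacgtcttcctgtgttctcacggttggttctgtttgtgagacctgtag

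In the Srxn1 promoter TGANTCA occurred at -62 and again at -5 from the start. The Prdx1 promoter held it at -248 and -133, the second of these overlapping a match to TGACNNNGC that began at -135. Prdx4 matched TGACNNNGC beyond the start, at 20. Prdx2 and Prdx3 had neither motif in this window. Of 33469 rat promoters of the same length, 12.1% held TGACNNNGC and 7.33% held TGANTCA, a motif chosen after the promoters had been read. RefSeq promoters were matched for 9 of the 10 genes, and with 2 starts for Txnrd1 this made 10 promoters. TGACNNNGC was found in 4 of these 10 (Prdx1, Prdx4, Prdx5 and 1 of the 2 of Txnrd1), TGANTCA in 2 of 10, and AGATAA, a motif of the erythroid factor GATA1, in 0 of 10 against 11.6% of all promoters. CCNCNCCC, the CACC motif of erythroid factors such as KLF1, was found in 8 of 10, against 46.3% of all. That motif is mostly C, and the 10 promoters had 43.7% to 70.0% G and C, with 9 of them above the median of 51.7% over all promoters. A match is a run of letters and says nothing of binding.

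Against the background of 8.99%, 4 of the 10 genes were called higher, and 0 were called lower. The median log2 fold change of the 10 was 0.56, against -0.04 over all tested genes. All 10 passed the filter on low counts. In 6 of them (the 4 called, Txn1 and Txnrd1) no PHZ library overlapped the PBS libraries in CPM, beside 41.7% of all tested genes. The plot of CPM by library shows the values described in turn.

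**Figure D1:**
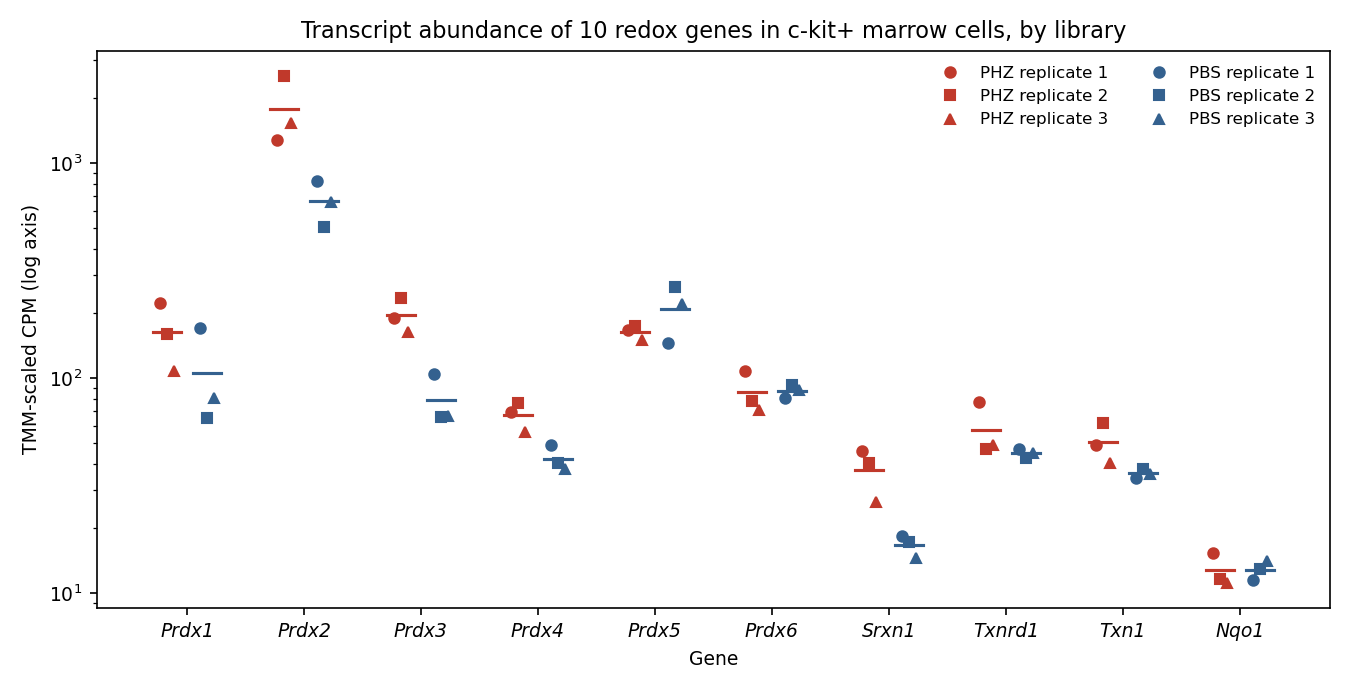
CPM after TMM scaling (log axis) of each of the 10 genes in 6 libraries, with PHZ points left of PBS points and a bar at each group mean. Prdx2, Prdx3, Prdx4 and Srxn1 separate by treatment, while Prdx1, Prdx5, Prdx6 and Nqo1 overlap.

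Prdx2, the cytosolic peroxiredoxin of red cells, had 1283, 2538 and 1534 CPM (read counts scaled to library size by TMM) in PHZ rats 1, 2 and 3, against 826, 502 and 661 CPM in PBS rats 1, 2 and 3. The lowest PHZ library lay well above the highest PBS library. Prdx2 averaged 1785 ± 664 CPM in PHZ and 663 ± 162 CPM in PBS (SD, n = 3 each), a 2.69-fold rise with a 95% interval of 1.59 to 4.54 (log2 fold change 1.43, SE 0.32, edgeR adjusted p = 0.0362). PHZ replicate 2 was far above the other PHZ rats, and without it the log2 fold change was 1.09 and the call was lost (edgeR adjusted p = 0.0794). In length-scaled units (FPKM) Prdx2 stood at rank 22 of all genes in PHZ and at rank 98 in PBS.

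Prdx3 encodes the mitochondrial peroxiredoxin. It had 189, 235 and 164 CPM in PHZ rats and 104, 65.9 and 66.4 CPM in PBS rats, again with a gap between the groups. The rise was 2.49-fold (interval 1.68 to 3.69; log2 fold change 1.31, SE 0.24, edgeR adjusted p = 0.0239). Of the 10 genes it had the smallest adjusted p.

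Prdx4 encodes the peroxiredoxin of the endoplasmic reticulum, where it takes part in disulfide formation. It had 69.7, 76.1 and 55.9 CPM in PHZ rats and 48.7, 40.3 and 37.7 CPM in PBS rats. The groups were separate but closer than for Prdx2 and Prdx3, with a 1.59-fold rise (interval 1.21 to 2.10; log2 fold change 0.67, SE 0.17, edgeR adjusted p = 0.0464). This call was the closest to the threshold and was lost with DESeq2 size factors in edgeR (adjusted p = 0.0509), with upper-quartile scaling (edgeR adjusted p = 0.0567) and with limma on FPKM values (adjusted p = 0.0771).

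Srxn1, which repairs overoxidised 2-Cys peroxiredoxins and is a known NRF2 target, had 45.6, 40.1 and 26.4 CPM in PHZ rats and 18.4, 17.2 and 14.5 CPM in PBS rats. All PHZ libraries were above all PBS libraries, PHZ replicate 3 least so. The rise was 2.24-fold (interval 1.53 to 3.27; log2 fold change 1.16, SE 0.23, edgeR adjusted p = 0.0281). The promoter with 2 TGANTCA matches printed above is that of Srxn1.

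The 4 calls depended on which libraries were included. All 4 held without PBS replicate 1 (edgeR adjusted p = 0.0248 to 0.0424). Leaving out PHZ replicate 2, PBS replicate 2 or PBS replicate 3 ended all 4, with edgeR adjusted p-values of 0.0690 to 0.1696. Over all genes edgeR then called 266, 0 and 0, against 1783 with all 6 libraries, so the loss was not particular to these genes. In each of those edgeR fits 4 of the 10 had an unadjusted p under 0.05. Leaving out PHZ replicate 3 ended those of Prdx2 (edgeR adjusted p = 0.0712) and Prdx4 (0.0568), and leaving out PHZ replicate 1 ended that of Prdx4 (0.0799). The log2 fold changes stayed above 0 each time, at 1.09 to 1.62 for Prdx2, 1.17 to 1.57 for Prdx3, 1.00 to 1.36 for Srxn1 and 0.58 to 0.80 for Prdx4. Without the 3 libraries that went against their sex label, which left 2 PHZ and 1 PBS library, the estimates were 1.54, 1.68, 0.95 and 1.56 for Prdx2, Prdx3, Prdx4 and Srxn1, against 1.25 for Prdx1, -0.38 for Prdx5, 0.074 for Prdx6, 0.63 for Txn1, 0.45 for Txnrd1 and -0.07 for Nqo1. In that fit 0 of the 10 were called (edgeR adjusted p = 0.461 to 0.954), as were 0 of the 14131 genes tested. At an unadjusted p under 0.05 there were 4 of the 10 and 1480 of all genes in that edgeR fit.

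**Figure D2:**
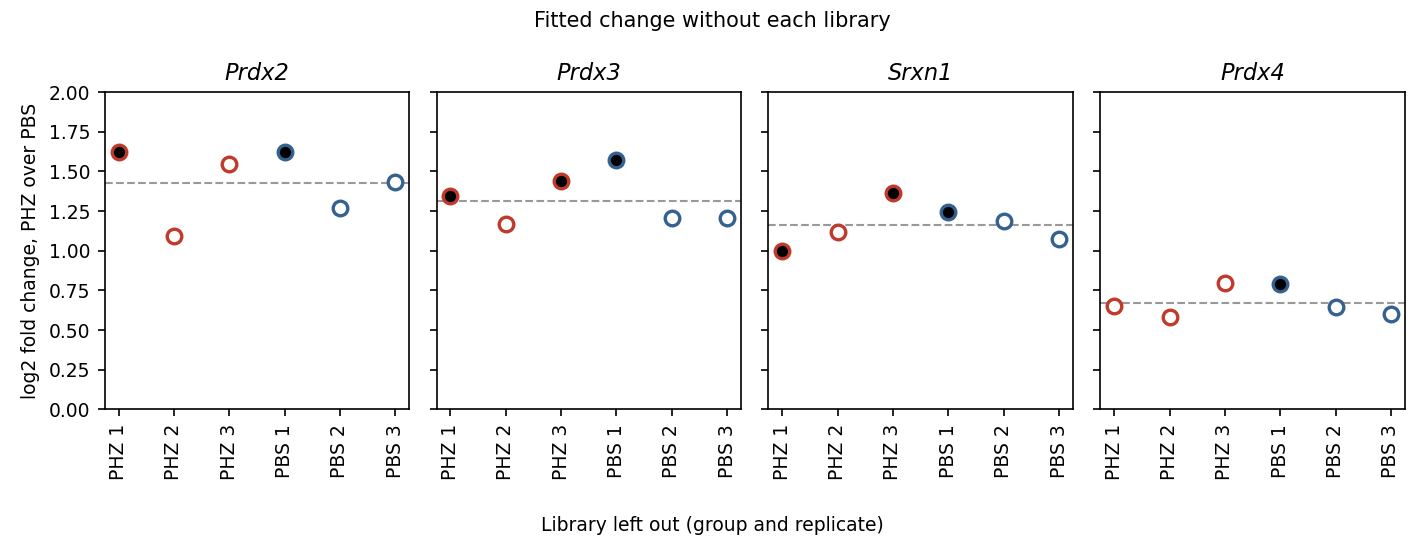
Log2 fold change (PHZ over PBS) of Prdx2, Prdx3, Srxn1 and Prdx4 with each library left out in turn, filled where the edgeR adjusted p was under 0.05, and a dashed line at the value with all 6 libraries. All points lie above 0, and Prdx4 is filled only without PBS replicate 1.

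Prdx1, a cytosolic and nuclear peroxiredoxin and known NRF2 target, had 223, 160 and 107 CPM in PHZ rats and 171, 65.2 and 80.4 CPM in PBS rats. The groups overlapped, since PBS replicate 1 was above the other PBS rats and above PHZ replicates 2 and 3. The log2 fold change was 0.63 with a 95% interval of -0.42 to 1.68 (edgeR adjusted p = 0.345), so neither no change nor a rise as large as that of Prdx2 was outside the interval. Without PBS replicate 1 it was 1.17 (edgeR adjusted p = 0.0700). The 9 monocyte and macrophage markers summed to 1827, 1150 and 1464 CPM in PHZ rats 1, 2 and 3, against 3587, 1242 and 1289 CPM in PBS rats 1, 2 and 3. Unlike the other CPM, these sums were scaled by library size alone, without TMM. Replicate 1 was thus the highest of its group for both Prdx1 and these markers, whose part in the Prdx1 values was not tested. Expected counts of Prdx1 were not whole in any of the 6 libraries, as happens where reads are divided among similar sequences, so its level is uncertain. Those of the other 9 genes were exactly whole, as deposited, in every library.

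Prdx5, an atypical 2-Cys enzyme of mitochondria, peroxisomes and cytosol, had 167, 174 and 150 CPM in PHZ rats and 145, 265 and 222 CPM in PBS rats. PBS replicate 1 lay below all PHZ rats, but the other PBS rats lay above them all. The log2 fold change was -0.36 (interval -0.91 to 0.18, edgeR adjusted p = 0.297). Prdx6, the 1-Cys enzyme that uses glutathione in place of thioredoxin, had 108, 78.3 and 70.8 CPM in PHZ rats and 80.4, 92.8 and 88.3 CPM in PBS rats. Its groups overlapped, with a log2 fold change of -0.02 (interval -0.46 to 0.41, edgeR adjusted p = 0.939), and the interval leaves out a change of the size seen for Prdx2, Prdx3 and Srxn1.

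Cytosolic thioredoxin and its reductase supply the reducing power for Prdx1 and Prdx2, and the mitochondrial pair, given further on, that for Prdx3. Txn1, cytosolic thioredoxin, had 48.8, 61.8 and 40.2 CPM in PHZ rats and 34.4, 37.7 and 35.9 CPM in PBS rats. The groups did not overlap, and the log2 fold change was 0.48 (SE 0.18, interval 0.06 to 0.90), but Txn1 was not called (edgeR adjusted p = 0.108). Txnrd1, the cytosolic selenoprotein that reduces thioredoxin, had 77.1, 46.8 and 48.7 CPM in PHZ rats and 46.7, 42.7 and 45.0 CPM in PBS rats. The groups barely separated in CPM, and the log2 fold change was 0.36 (interval -0.14 to 0.87, edgeR adjusted p = 0.268). In FPKM they overlapped, with 12.05 in PHZ replicate 2 against 12.57 to 14.37 in PBS rats. Without PHZ replicate 1, the highest library, it was 0.10.

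Nqo1 reduces quinones and, with Srxn1, Txnrd1 and Prdx1, is among the usual NRF2 targets. It had 15.3, 11.7 and 11.2 CPM in PHZ rats and 11.5, 12.9 and 14.1 CPM in PBS rats. The groups overlapped throughout, with a log2 fold change of -0.01 (interval -0.47 to 0.45, edgeR adjusted p = 0.968). Of the NRF2 targets among the 10, Srxn1 was thus called and Prdx1, Txnrd1 and Nqo1 were not, a difference between genes that was not itself tested.

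**Figure D3:**
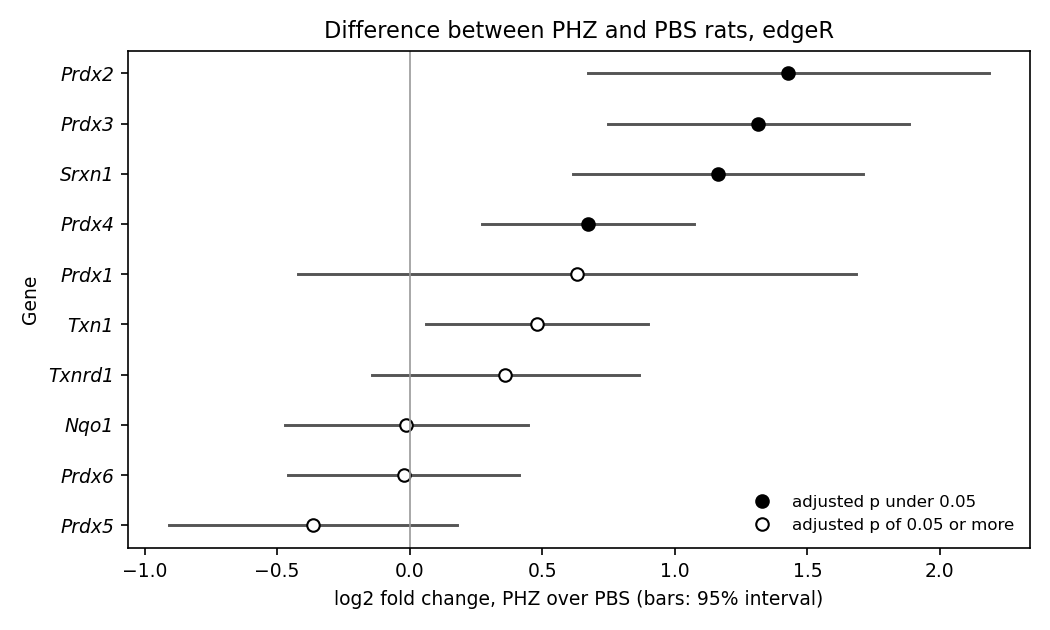
Log2 fold change (PHZ over PBS) of the 10 genes from edgeR with 95% intervals, filled where the adjusted p was under 0.05. Prdx3, Prdx2 and Srxn1 lie above 1, Prdx4 at 0.67, and the intervals of Prdx1, Prdx5, Prdx6, Txnrd1 and Nqo1 take in 0.

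The authors' deposited table marked Prdx2, Prdx3 and Srxn1 as up, with log2 ratios of 1.34, 1.24 and 1.11, and marked none of the 10 as down. In the authors' deposited table Prdx4 was not marked, with a log2 ratio of 0.61. Its Probability score there was 0.985, above the 0.978 of Srxn1, which was marked. That table is built from the same libraries.

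Levels of different genes were compared in FPKM, which is scaled by transcript length. In PHZ rats the order by mean FPKM was Prdx2, Prdx5, Prdx1, Txn1, Prdx3, Prdx6, Prdx4, Txnrd1, Srxn1 and Nqo1. Prdx2 had 1688, 2701 and 1841 FPKM, far above Prdx5 with 227, 192 and 187 FPKM. Neighbours from Prdx5 down to Prdx6 overlapped in their libraries, as did Txnrd1, Srxn1 and Nqo1. In PBS rats the order was Prdx2, Prdx5, Txn1, Prdx1, Prdx6, Prdx3, Prdx4, Txnrd1, Nqo1 and Srxn1. There Prdx2 averaged 820 ± 211 FPKM and Prdx5 268 ± 79.3 FPKM (SD, n = 3 each), which did not overlap. The neighbours Txn1 and Prdx1, Prdx1 and Prdx6, and Prdx3 and Prdx4 overlapped in PBS. Srxn1 averaged 13.0 ± 4.14 FPKM in PHZ and 6.02 ± 1.02 FPKM in PBS, the lowest of the 10 in PBS and above Nqo1 in every PHZ library. Txn1 was counted over 330 bases in the files, against 855 to 3452 for the other 9, so its FPKM depends most on the length used.

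The 6 peroxiredoxins together had 2421 to 3371 FPKM in PHZ rats and 1291 to 1702 FPKM in PBS rats. Without Prdx2 the sum was 716 ± 163 FPKM in PHZ and 616 ± 57.9 FPKM in PBS (SD, n = 3 each), and the groups overlapped. Prdx2 made up 65.3%, 80.1% and 76.0% of the summed peroxiredoxin FPKM in PHZ rats, against 61.9%, 49.7% and 58.3% in PBS rats. No PHZ rat overlapped a PBS rat, with a mean difference of 17.2 percentage points. The share of Prdx5 was 8.79%, 5.69% and 7.74% in PHZ rats and 11.2%, 27.0% and 20.2% in PBS rats, a mean difference of -12.1 points. The share of Prdx6 was 3.93% ± 1.58 in PHZ and 7.86% ± 1.62 in PBS (SD, n = 3 each). For each of these 3 shares the two-sided exact permutation p was 0.1, the smallest that 3 rats against 3 allow, and 0.2 after adjustment over the 6 shares. A share falls when another gene of the sum rises, so the 6 shares are not independent.

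**Figure D4:**
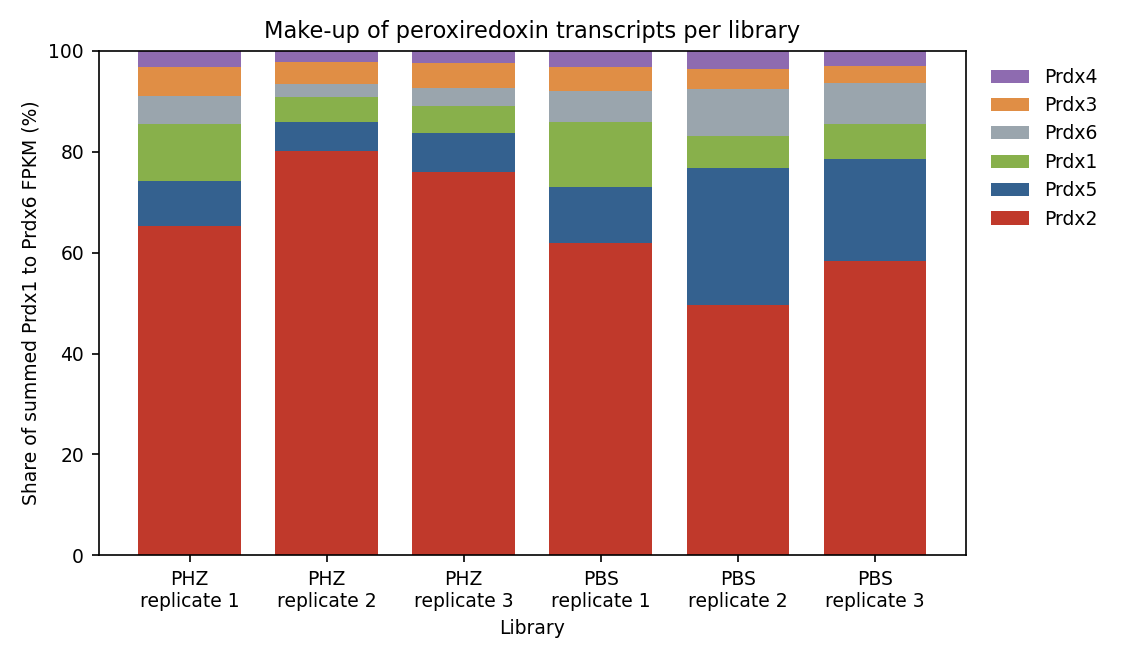
Percent of the summed FPKM of Prdx1 to Prdx6 held by each peroxiredoxin in each library, PHZ libraries left of PBS libraries. Prdx2 holds 65.3% to 80.1% in PHZ rats and 49.7% to 61.9% in PBS rats, and Prdx5 holds less in every PHZ rat than in any PBS rat.

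Ratios that pair an enzyme with its partner were compared in FPKM. Srxn1 was 0.54% ± 0.22 of the summed FPKM of its substrates Prdx1 to Prdx4 in PHZ and 0.59% ± 0.16 in PBS (SD, n = 3 each). The FPKM of Txnrd1 over that of Txn1 was 0.095 ± 0.033 in PHZ and 0.1004 ± 0.0083 in PBS (SD, n = 3 each). In both ratios the groups overlapped.

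The members did not vary alike among the libraries. PHZ replicate 2 was the highest PHZ library for Prdx2, Prdx3, Prdx4, Prdx5 and Txn1, and PHZ replicate 1 for Prdx1, Prdx6, Srxn1, Txnrd1 and Nqo1. Over the 6 libraries log2 CPM of Prdx3 correlated with that of Prdx4 at 0.98 and with that of Prdx2 at 0.96, and Prdx4 with Srxn1 at 0.97 (Pearson, as a description). The 6 points share the treatment, which alone raises such values between genes that rose. For deviations from the group means the values were 0.92 for Prdx3 with Prdx4, 0.76 for Prdx3 with Prdx2, 0.83 for Prdx4 with Srxn1 and 0.08 for Prdx2 with Srxn1. Prdx6 and Nqo1 correlated at 0.92 both over the 6 libraries and within groups.

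Among 6659 other genes whose mean log2 CPM was 4 or more, those most like Prdx2 over the 6 libraries were Cog8, Mrfap1 and Scly (Pearson r of 0.9988, 0.9981 and 0.9974). Those most like Prdx3 were Mars, Lmna and Rchy1 (0.9984 to 0.9972), and those most like Prdx4 were Mrpl20, Rpl23a and Mrpl15 (0.998 to 0.9976). Those most like Srxn1 were Ldah, Diablo and Psma1 (0.9996 to 0.9956). Prdx1 was most like Rpl26 (0.9936), Txn1 most like Rps26 (0.9966), Prdx5 most like Impa2 (0.9929), Txnrd1 most like Prmt7 (0.9875), Nqo1 most like Rmnd1 (0.9854) and Prdx6 most like Gnl2 (0.9659). Each of the 10 thus had a gene at 0.9659 or above among the 6659, with 6 points that share the treatment, and the names are a description only.

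Markers of the cell types in the sample moved with the treatment too. Sums of marker CPM were scaled by library size alone, without TMM. Over all tested genes 8.99% were called higher and 4.17% lower. Of 13 erythroid markers tested, 7 were called higher in PHZ and 0 lower (median log2 fold change 1.07). The summed CPM of 11 erythroid genes other than globins was 14394 to 19899 in PHZ rats and 7571 to 11227 in PBS rats, with no overlap. The globins Hba1 and Hbb, left out of the sum, had log2 fold changes of 0.20 and 0.14 and overlapped (edgeR adjusted p = 0.808 and 0.860). Alas2, in the sum, had 0.25 and also overlapped (edgeR adjusted p = 0.658). Of 9 B lineage markers, 6 were called lower in PHZ and 0 higher, with sums of 125 to 231 CPM in PHZ rats and 587 to 724 CPM in PBS rats. Of 10 neutrophil markers tested, 0 were called in edgeR (3 at an unadjusted p under 0.05), and the 11 listed summed to 5819 to 10583 CPM in PHZ rats and 12427 to 26880 CPM in PBS rats. Of 7 T and NK cell markers 4 were called lower, and of 5 stem and progenitor markers 2 (Procr and Fli1). Of 8 monocyte and macrophage, 6 mast, basophil and eosinophil and 4 megakaryocyte markers, 0 were called in edgeR, with 1, 2 and 1 at an unadjusted p under 0.05. No marker summed was at 0 in all libraries. Kit itself, the marker of the selection, was detected in every library and not called (edgeR adjusted p = 0.841). The part of cell composition in the members' changes was not tested.

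Set beside the erythroid genes, the members fell into different places. The mean log2 CPM of the 11 erythroid genes was 1.09 higher in PHZ, and each member's log2 CPM was taken relative to it. Prdx2 was then 0.66, 0.89 and 0.49 above the erythroid mean in PHZ rats. In PBS rats it was 0.44, 0.27 and 0.42 above that mean, a difference of 0.30. The groups were barely apart, at 0.49 in PHZ replicate 3 against 0.44 in PBS replicate 1. Prdx3 differed by 0.24, Srxn1 by 0.03 and Prdx1 by -0.39, all with overlap. Prdx4 differed by -0.42, also with overlap, so its rise was smaller than that of the erythroid mean by the group averages. Prdx5 (-1.41) and Nqo1 (-1.11) were lower relative to the erythroid mean in every PHZ rat than in any PBS rat. For Nqo1 the margin was slight, at -5.7204 in PHZ replicate 1 against -5.7157 in PBS replicate 1. Prdx6 differed by -1.14, Txnrd1 by -0.77 and Txn1 by -0.63, all with overlap. These differences are on the log2 scale and were not tested. The share of all genes without overlap on this scale was not counted.

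The wider thioredoxin family and the enzymes around it were counted from lists. Of 18 other thioredoxin and glutaredoxin genes tested, 1 was called higher and 0 lower, 5.56% against the background of 13.2%, with a median log2 fold change of 0.32. The gene called was Txn2, the mitochondrial thioredoxin that reduces Prdx3. Txn2 had 81.7, 110.5 and 74.8 CPM in PHZ rats and 50.7, 44.4 and 44.1 CPM in PBS rats, a 1.92-fold rise (log2 fold change 0.94, edgeR adjusted p = 0.0255). Txnrd2, the mitochondrial reductase that restores Txn2, was not called (log2 fold change 0.49, edgeR adjusted p = 0.107).

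Of 10 tested genes in a list of thioredoxin-dependent enzymes, partners of thioredoxin and sestrins, 2 were called higher and 2 lower. That is 40% against the background of 13.2%, with a median log2 fold change of -0.32. Rrm1 and Rrm2, the subunits of ribonucleotide reductase that serve DNA replication, rose 2.02-fold and 3.09-fold (edgeR adjusted p = 0.0176 and 0.0154). Rrm2b, the p53-induced small subunit, had 12.9, 10.6 and 13.4 CPM in PHZ rats and 19.1, 23.2 and 21.4 CPM in PBS rats (log2 fold change -0.79, edgeR adjusted p = 0.0312). Sesn3, a stress-induced sestrin, had 34.0 ± 6.07 CPM in PHZ and 65.3 ± 6.58 CPM in PBS (SD, n = 3 each; log2 fold change -0.94, edgeR adjusted p = 0.0238). The subunits of the replicative enzyme thus rose while the alternative small subunit fell.

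Other enzymes against peroxide and superoxide, among them catalase and the glutathione peroxidases, gave 1 call of 8 tested, 12.5% against the background of 13.2%. That was Sod1, the cytosolic superoxide dismutase that makes hydrogen peroxide, with 288 ± 52.0 CPM in PHZ and 169 ± 9.39 CPM in PBS (SD, n = 3 each; 1.70-fold, edgeR adjusted p = 0.0342). Of 18 NRF2 targets other than the members, 3 were called higher and 1 lower, 22.2% against the background of 13.2%, with a median log2 fold change of 0.05. Gclc and Gclm, both subunits of the enzyme that starts glutathione synthesis, rose 1.98-fold and 2.38-fold (edgeR adjusted p = 0.0275 and 0.0298), and the haem-pathway reductase Blvrb rose 2.36-fold (edgeR adjusted p = 0.0258). Osgin1 had 26.9 ± 3.52 CPM in PHZ and 52.2 ± 1.90 CPM in PBS (SD, n = 3 each; log2 fold change -0.96, edgeR adjusted p = 0.0187). The other 14 targets did not pass the test.

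Among 9 tested regulators of the NRF2 pathway, Bach1, a haem-sensing repressor of NRF2 targets, rose 1.64-fold (edgeR adjusted p = 0.0392), and the other 8 were not called. The share called was 11.1%, against the background of 13.2%. Of 11 genes that supply NADPH, a list that shares members with the NRF2 targets, 2 were called higher and 0 lower. That is 18.2%, against the background of 13.2%. Those called were the folate enzymes Mthfd1 (2.30-fold, edgeR adjusted p = 0.0166) and Mthfd2 (3.04-fold, edgeR adjusted p = 0.0190). Of 7 genes of selenoprotein synthesis, on which Txnrd1 depends, 0 were called in edgeR (median log2 fold change 0.21), beside the same background. In edgeR 1 of the 7 passed an unadjusted p under 0.05.

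**Figure D5:**
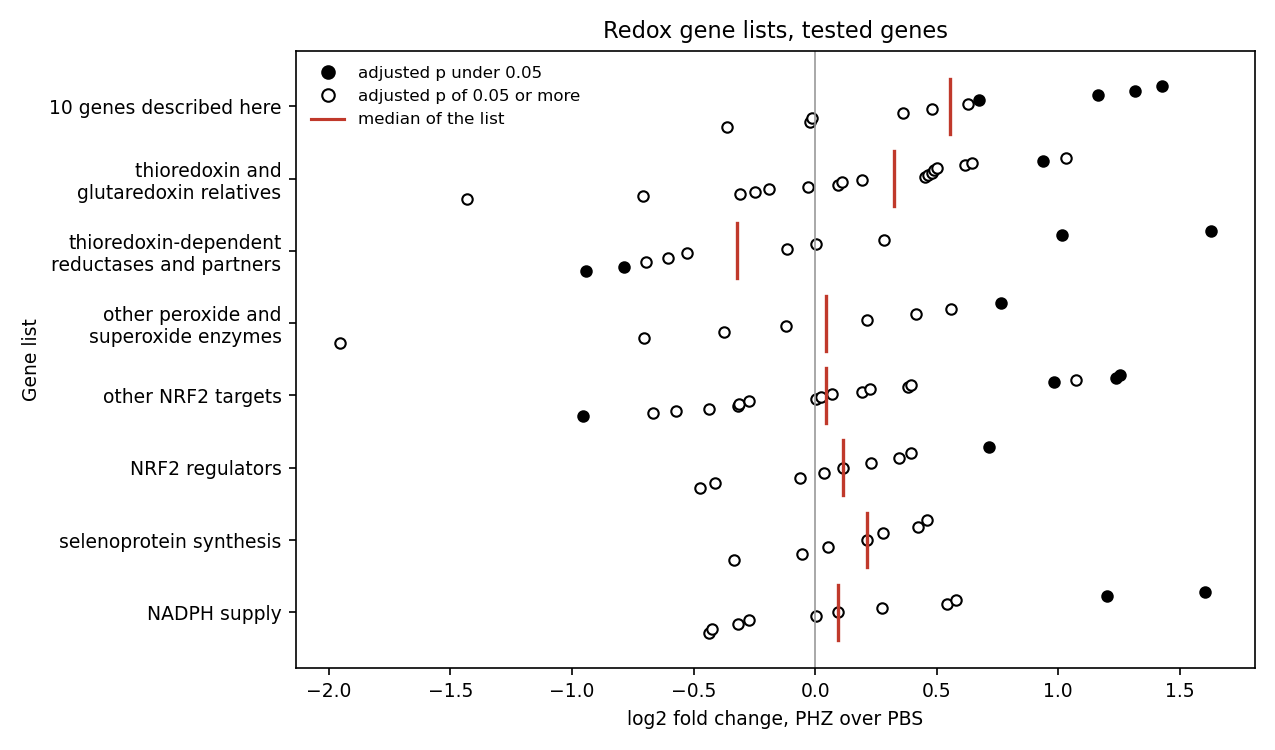
Log2 fold change (PHZ over PBS) of each tested gene in the 10 members and in 7 lists around them, filled where the edgeR adjusted p was under 0.05, with a bar at each median. The members' median of 0.56 is above those of the lists, which run from -0.32 to 0.32, beside -0.04 for all genes.

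A model with treatment, labelled sex and their product called 0 of the 10 (edgeR adjusted p = 0.949 to 0.996) and 0 of the 13547 genes. Of these genes 633 had an unadjusted p under 0.05 for the product in edgeR, and Prdx2 was the 1 among the 10. Since 3 libraries went against their sex label, this term does not measure sex.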

How the data were processed

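Poly(A) RNA of 6 libraries, 3 PHZ and 3 PBS, was sequenced. Per the file headers, the authors deposited an expected count and an FPKM value per gene and library, and a comparison table with group means in FPKM, the log2 ratio (PHZ over PBS) and a Probability score. The submitters' processing notes name HISAT, GATK, RSEM and rn6, with neither roles nor versions. The aligner settings were not given in the sources used here. Of the listed counts 72.8% to 74.1% were exactly whole as deposited, with no tolerance. Genes not listed in a library were set to 0. The authors' group means equalled the means of the libraries' FPKM within 0.001 in 100% of genes, with 0.01 standing in for unlisted genes.

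Counts were then rounded and tested in edgeR 4.0.16 under R 4.3.3 (TMM scaling, filterByExpr, robust glmQLFit and glmQLFTest, treatment as the only term), with Benjamini-Hochberg adjustment over 13547 genes. The standard error is the size of the log2 fold change divided by the root of F, and 95% intervals use the fit's degrees of freedom. The 3 rats per group leave 4 residual degrees of freedom. The biological coefficient of variation was 35.2%. CPM are TMM-scaled. DESeq2 1.42.0, limma 3.58.1 on log2(FPKM + 1) and log2(FPKM + 0.1), other filters and scalings, left-out libraries, globin genes left out, sex as labelled and a replicate block were alternatives. Shares were tested with exact permutation over the libraries in Python 3.11.15. Motifs were searched on both strands.

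The genes and lists were chosen with earlier results of these data known, so list counts are descriptions. Up to 4 called genes of a list with the smallest p are named, and the 3 genes most like each gene by Pearson correlation were taken. The series text describes 6 rats and there are 6 libraries, so p-values measure the spread between these rats.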

Additional observations from a re-analysis of the deposited data

How the results depend on the processing

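Log2 fold changes of Prdx1, Prdx2, Prdx3, Prdx4, Srxn1, Txn1 and Txnrd1 stayed above 0, and that of Prdx5 below 0, in all 18 alternatives. Same-numbered libraries deviated together at 0.21, 0.06 and 0.0045 (correlation of deviations from the group means). The best match of PHZ replicates 2 and 3 was not their own number, and that of PHZ replicate 1 was. With so few libraries these values cannot decide whether the rats were paired. With a replicate block 0 genes and 0 of the 10 were called in edgeR, against 4641 genes and 6 of the 10 at an unadjusted p under 0.05, with adjusted p-values of 0.0880 for Prdx2, 0.0582 for Prdx3, 0.0648 for Prdx4 and 0.0555 for Srxn1. With labelled sex as a covariate 928 genes and 1 of the 10 (Prdx3, edgeR adjusted p = 0.0485) were called. Without the libraries against their sex label 0 genes and 0 of the 10 were called (1480 and 4 at an unadjusted p under 0.05 in edgeR). DESeq2 called 3421 genes, 56.7% of them higher, and edgeR without both libraries numbered 1, an alternative chosen after seeing the data, called 2920, 56.9% of them higher. Both called 4 of the 10. Leaving out 1 library gave 0 to 1744 genes and 0 to 4 of the 10. Without PBS replicate 2 or 3, where edgeR called 0 genes, 3325 and 3291 passed an unadjusted p under 0.05, with 4 of the 10 each time. Without PHZ replicate 2 it called 266 genes and 0 of the 10 (4 at an unadjusted p under 0.05), and without PHZ replicate 3, 572 and 2. Log2 fold changes near 0 changed sign: Prdx6 was 0.074 without the libraries against their sex label and -0.22 to 0.10 with 1 library left out, and Nqo1 was 0.0041 with no filter and -0.16 to 0.070 with 1 library left out. The cause was not tested. Shares of the summed peroxiredoxin FPKM differed by 13.7 to 21.5 points for Prdx2 and by -16.2 to -8.30 points for Prdx5 with 1 library left out.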

Other observations

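A single PBS rat stood above the rest for several redox genes that were not called. Txndc5, an oxidoreductase of the endoplasmic reticulum abundant in plasma cells, had 184, 135 and 121 CPM in PHZ rats and 882, 160 and 145 CPM in PBS rats 1, 2 and 3. Hmox1, the haem-degrading enzyme and an NRF2 target, had 1327, 807 and 437 CPM in PHZ rats and 1569, 414 and 470 CPM in PBS rats, so replicate 1 was the highest of both groups. The log2 fold change of Hmox1 was 0.07 (edgeR adjusted p = 0.948). Txnip, the inhibitor of thioredoxin, had 88.7, 77.6 and 139 CPM in PHZ rats and 246, 125 and 128 CPM in PBS rats (edgeR adjusted p = 0.197). The macrophage receptor Cd163 had 315, 262 and 268 CPM in PHZ rats and 628, 162 and 219 CPM in PBS rats. These 4 genes were chosen after their values were seen.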
